A study of Homo sapiens with 8 samples.

Results

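Genes that are normally expressed in germ cells and the testis were followed through RNA-seq libraries of the Burkitt lymphoma line Raji and its derivative Raji-4RH. The 10 genes were SYCP1, SYCP3, TEX19, MAEL, DDX4, TDRD12, DAZL, STK31, CTCFL and BRDT, out of 63967 gene labels in the deposited table, of which 18143 could be given values. They were chosen on results of these same libraries, in which TEX19 was already known to rise with chidamide, so the chidamide values below are a description and carry no test. Raji is a B-cell line that responds to rituximab, the antibody against CD20, and Raji-4RH is its derivative selected for resistance under the antibody. Both lines were treated with DMSO, the vehicle, or with 3 μM chidamide, an inhibitor of histone deacetylases, for 24 h, with 2 libraries in each of the 4 groups. All cells were harvested by flow sorting, and the gate is not given in the sources used here. No label says whether the 2 libraries of a group came from separate cultures, so the spread between them may be technical.

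Germline genes are transcribed during meiosis, the maturation of sperm and eggs and the piRNA defence against transposable elements, and they are kept silent in nearly all somatic cells. This silencing uses DNA methylation, histone deacetylases and the non-canonical Polycomb complex PRC1.6, in which MGA and MAX bind the E-box and E2F6 binds E2F sites. Some of these genes come on again in tumours and are then called cancer-testis genes.

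The deposited values were FPKM, that is, reads divided by the length of the gene and by the total of the library. The libraries held 13991697 to 21193441 reads, and every value above 0, multiplied back, gave a whole number of reads. The table has more labels than rows of values, so that past the first part of the table the values of a gene stand below its label. TEX19 took its values from 7 rows below the label, SYCP1 from 14, STK31 from 12, TDRD12 from 5, DDX4 from 3, and SYCP3, MAEL and BRDT from 1, while DAZL and CTCFL needed no shift. With these shifts, 346 of 364 housekeeping genes had at least 100 reads in every library, against 168 and 183 in the rows 1 below and 1 above. For TEX19 the rows directly above and below held at most 9 and 6 reads, and its nearest such anchor gene lay 62 labels away. STK31 had its nearest anchor 182 labels away and BRDT 73, so TEX19, STK31 and BRDT rest on the shift of their whole segment of the table. For BRDT the rows directly above and below held up to 754 and 4627 reads. B cell markers summed to between 617 and 1160 FPKM in the 8 libraries, and all 8 that could be placed had reads in every library, as the label of a B-cell line would have it.

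Promoters are shown for 4 of the genes. STK31, BRDT and TDRD12 hold the E-box, the CACGTG palindrome that is the same on both strands, and SYCP3 is set beside them as a promoter without these letters. Sequences are from RefSeq (GRCh38.p14), 5′ to 3′ on the strand of the gene, with the E-box in capitals and ending before the gene body in GENCODE v29. STK31 lies at chr7:23710069-23710166, BRDT at chr1:91949221-91949370 and TDRD12 at chr19:32719617-32719752, all on the plus strand, and SYCP3 at chr12:101739473-101739612 on the minus strand.
STK31: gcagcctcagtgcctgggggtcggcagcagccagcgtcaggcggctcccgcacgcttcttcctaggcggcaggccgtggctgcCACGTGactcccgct
BRDT: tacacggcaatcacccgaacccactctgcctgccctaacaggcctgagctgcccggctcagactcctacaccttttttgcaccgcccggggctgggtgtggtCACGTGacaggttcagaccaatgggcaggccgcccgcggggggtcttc
TDRD12: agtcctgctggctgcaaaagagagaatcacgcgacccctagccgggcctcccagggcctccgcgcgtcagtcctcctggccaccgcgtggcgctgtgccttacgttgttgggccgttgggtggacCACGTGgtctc
SYCP3: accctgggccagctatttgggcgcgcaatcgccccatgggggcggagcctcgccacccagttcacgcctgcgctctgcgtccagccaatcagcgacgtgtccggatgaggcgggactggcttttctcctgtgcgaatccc
Of the 9 genes with a promoter entry, 5 held the E-box in the 300 bases around at least 1 start site, STK31 with 2 copies and BRDT, TDRD12, and 1 of the 2 starts of MAEL and of DAZL with 1 copy each. Over all 35116 promoters of this length the share was 7.26%, and it was 10.2% among those with at least 20 CpG dinucleotides. These shares count single promoters, while 5 of 9 counts genes, some with more than 1 start site, so they are not like for like. TEX19 had no promoter entry. The E2F letters GCGGGAA, searched on both strands, were in the SYCP1 promoter and in 6.55% of all promoters.

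Under chidamide the germline genes did not come on as a block. In Raji-4RH, TEX19 went from a mean of 0.563 FPKM to 31.6 FPKM, CTCFL and SYCP3 reached between 1 and 2 FPKM, and DAZL, STK31, DDX4 and MAEL stayed under 1 FPKM. In Raji the order began with TEX19 too, at a mean of 7.68 FPKM, and the highest value of another gene was 0.214 FPKM, for MAEL in 1 library. SYCP1 had 0 reads in all 8 libraries. Summed over the 10 genes, FPKM was 0.445 and 0.811 in Raji DMSO, 8.18 and 8.14 in Raji chidamide, 2.39 and 2.41 in Raji-4RH DMSO, and 39.05 and 33.63 in Raji-4RH chidamide. TEX19 alone made up 94.4% and 93.9% of that sum in Raji chidamide and 87.8% and 86.0% in Raji-4RH chidamide.

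**Figure D1:**
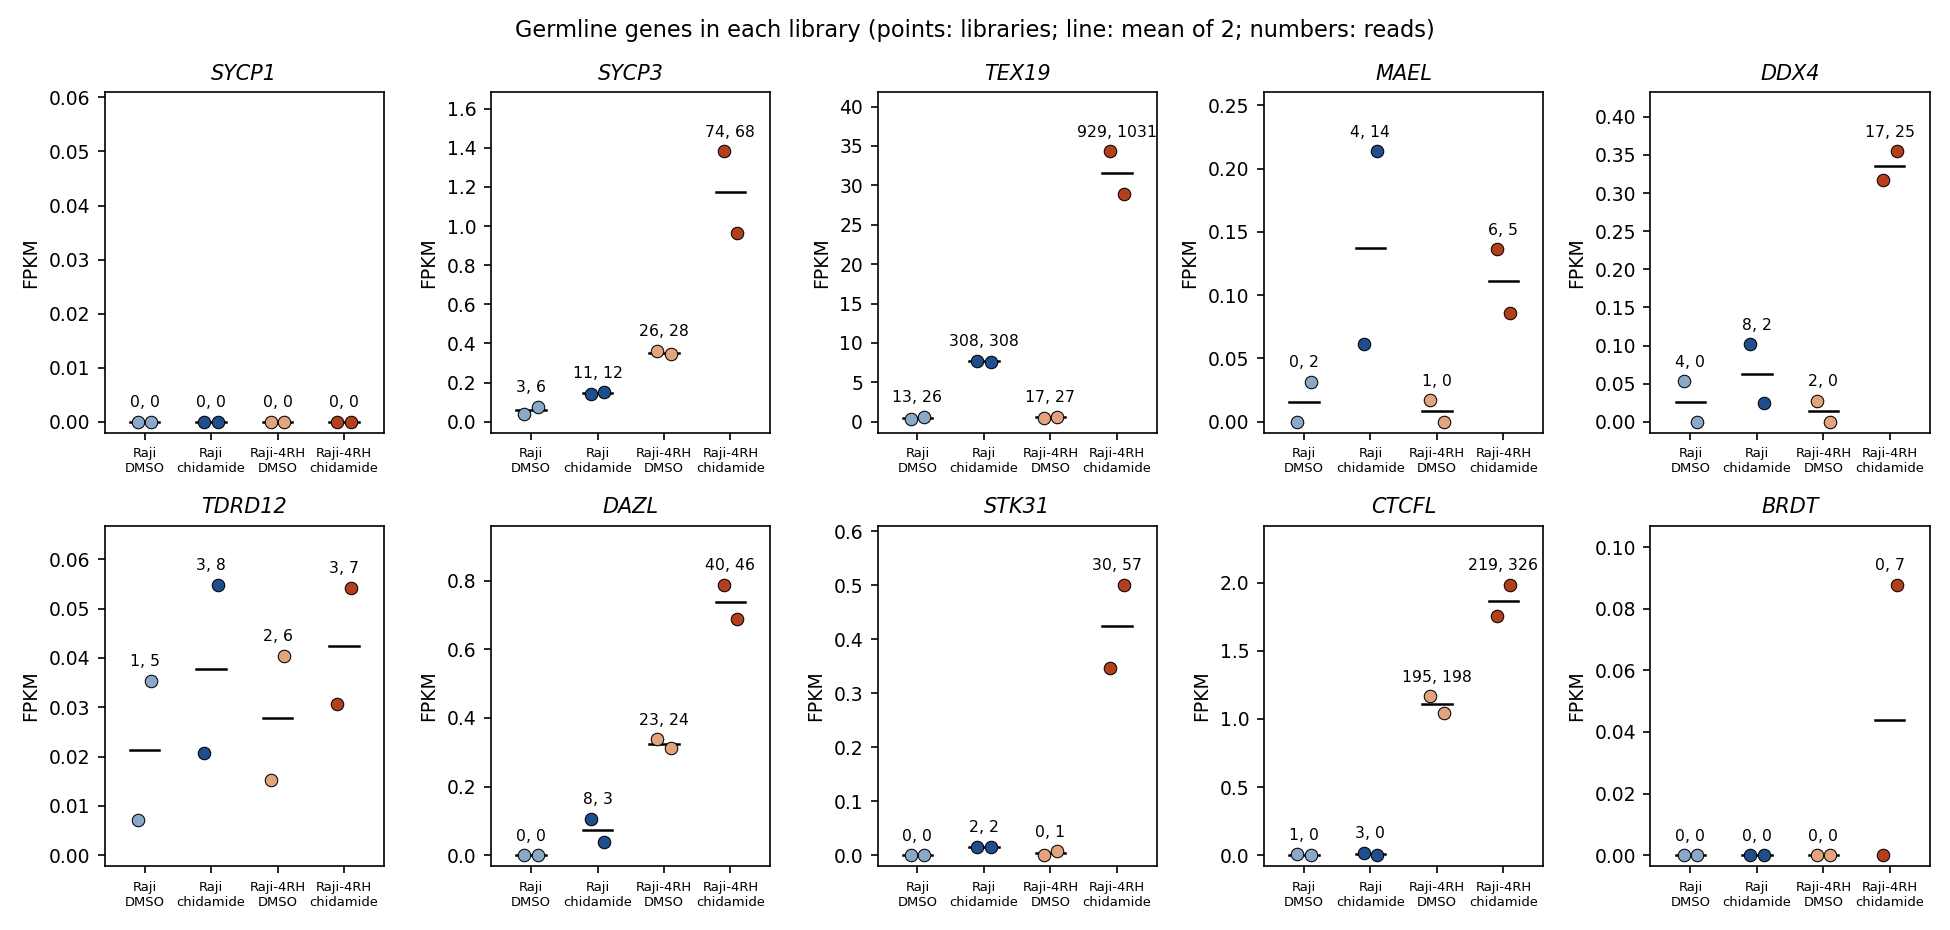
FPKM (y axis, a scale of its own in each panel) of the 10 germline genes in the 4 groups (x axis), with 1 point per library, a line at the mean of 2 libraries and the reads of the 2 libraries above. TEX19 stands at 34.3 and 28.9 FPKM in Raji-4RH chidamide, SYCP1 has no reads, and CTCFL is near 0 in all 4 Raji libraries.

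Among the genes of meiotic chromosomes, SYCP1 builds the transverse filaments of the synaptonemal complex and SYCP3 its lateral elements. SYCP1 (chromosome 1 from 114854803 to 114995370 in GRCh38) had no read in any library, so a level of up to 3 reads over the 2 libraries of a group could not be told from 0. SYCP3 (chromosome 12 from 101728648 to 101739472, minus strand) had 3 and 6 reads in Raji DMSO, 11 and 12 in Raji chidamide, 26 and 28 in Raji-4RH DMSO, and 74 and 68 in Raji-4RH chidamide. That is 0.354 ± 0.0120 FPKM in Raji-4RH DMSO and 1.17 ± 0.295 FPKM with chidamide (SD, n = 2). The 4 groups rose in this order without overlap. The read rate, reads over the library total, was 3.24 times as high with chidamide as with DMSO in Raji-4RH (95% interval 2.35 to 4.52) and 2.46 times in Raji (1.10 to 6.04). In the DMSO libraries alone it was 5.99 times as high in Raji-4RH as in Raji (2.93 to 13.8). SYCP3 overlaps CHPT1, a phospholipid enzyme gene on the other strand, and the strand setting of the counting is not given in the sources used here, so reads of the 2 genes cannot be told apart. CHPT1 stood at 0 and 0.0248 FPKM in Raji DMSO, 0.105 and 0.0800 in Raji chidamide, 7.10 and 7.32 in Raji-4RH DMSO, and 10.0 and 10.5 in Raji-4RH chidamide, the same order of groups as SYCP3.

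All such intervals are exact conditional binomial intervals over the summed reads of 2 libraries, and they cover counting error only, not the spread between libraries.

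TEX19 acts in germ cells and the placenta, where it takes part in the control of transposable elements. It lies on chromosome 17 from 82359247 to 82363776, plus strand. It had 13 and 26 reads in Raji DMSO and 17 and 27 reads in Raji-4RH DMSO, or 0.503 ± 0.231 and 0.563 ± 0.134 FPKM (SD, n = 2 in each group). At baseline the log2 difference between the lines was 0.06 on log2(FPKM + 1), and the ratio of read rates was 1.13 (95% interval 0.715 to 1.78). TEX19 was under 1 FPKM in the DMSO libraries and entered the fit through chidamide, so this is a description. With chidamide there were 308 and 308 reads in Raji and 929 and 1031 reads in Raji-4RH, or 7.68 ± 0.0581 and 31.6 ± 3.81 FPKM. Both lines were far above their DMSO libraries, and every Raji-4RH chidamide library was above every Raji chidamide library. The log2 fold change was 4.38 in Raji-4RH and 2.54 in Raji (standard error 0.119 for each), and the read rates rose 54.9 times (40.7 to 75.8) and 15.2 times (11.0 to 21.6). By log2 fold change TEX19 was at rank 3 of the 16843 genes with at least 1 read in Raji-4RH and at rank 21 in Raji. The fitted difference of the effects, Raji-4RH minus Raji, was 1.84 on the log2 scale (standard error 0.168). It is built from the same chidamide values and is given as a description, beside the 48.8% of all genes tested for which limma called such a difference.

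Of the piRNA pathway, MAEL, DDX4 and TDRD12 are proteins of the nuage, the granule of germ cells where piRNAs are made. DDX4 (chromosome 5 from 55738017 to 55817157, plus strand), the RNA helicase known as VASA, had 4 and 0 reads in Raji DMSO, 8 and 2 in Raji chidamide, 2 and 0 in Raji-4RH DMSO, and 17 and 25 in Raji-4RH chidamide. Its groups overlapped in Raji and did not in Raji-4RH, where the ratio of read rates was 25.9 (6.73 to 221), against 2.41 (0.694 to 10.5) in Raji. DDX4 overlaps SLC38A9 on the other strand, which had 289 to 353 reads in the 8 libraries, and reads of the 2 cannot be told apart either. MAEL (chromosome 1 from 166975582 to 167022214), needed for transposon silencing, had 0 and 2 reads in Raji DMSO, 4 and 14 in Raji chidamide, 1 and 0 in Raji-4RH DMSO, and 6 and 5 in Raji-4RH chidamide. The chidamide libraries of both lines were above their DMSO libraries, by 8.67 times (2.07 to 77.0) in Raji and 13.6 times (1.97 to 584) in Raji-4RH, and the width of these intervals comes from the few DMSO reads. TDRD12 (chromosome 19 from 32719753 to 32829580), a tudor protein of the pathway, had between 1 and 8 reads in every library and its groups overlapped in both lines, with ratios of 1.54 (0.548 to 4.49) in Raji-4RH and 1.77 (0.598 to 5.81) in Raji. No change of TDRD12 was detectable at this depth.

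DAZL (chromosome 3 from 16586792 to 16670306, minus strand) binds messenger RNAs and keeps them translated in germ cells. It had 0 reads in both Raji DMSO libraries, 8 and 3 in Raji chidamide, 23 and 24 in Raji-4RH DMSO, and 40 and 46 in Raji-4RH chidamide. DMSO-treated Raji-4RH cells thus held more DAZL reads than chidamide-treated Raji cells, with no overlap between any of the groups. The read rate with chidamide was 2.26 times that with DMSO in Raji-4RH (1.56 to 3.29). In Raji it was at least 3.53-fold higher, and the baseline of Raji-4RH was at least 15.6-fold higher than that of Raji, counting 3 reads over the DMSO group in place of 0. STK31 (chromosome 7 from 23710167 to 23832513, plus strand), a testis protein with a tudor and a kinase-like domain, had 0 and 0 reads in Raji DMSO, 2 and 2 in Raji chidamide, 0 and 1 in Raji-4RH DMSO, and 30 and 57 in Raji-4RH chidamide. Only the Raji-4RH chidamide libraries had more than 2 reads. The ratio of read rates in Raji-4RH was 107, with an interval from 18.8 to 4284 that rests on the single DMSO read.

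CTCFL and BRDT are the testis relatives of chromatin proteins of all cells. CTCFL (chromosome 20 from 57495966 to 57525652, minus strand), also called BORIS, is the paralog of the insulator protein CTCF. It had 1 and 0 reads in Raji DMSO, 3 and 0 in Raji chidamide, 195 and 198 in Raji-4RH DMSO, and 219 and 326 in Raji-4RH chidamide. It differed more between the lines than between the treatments: DMSO-treated Raji-4RH stood at 1.11 ± 0.0835 FPKM and Raji at 0.00284 ± 0.00401 FPKM (SD, n = 2), a log2 difference of 1.07 on log2(FPKM + 1) (standard error 0.0637). CTCFL entered the fit through its Raji-4RH libraries alone, so no test is given for it. The ratio of read rates was 392 with an interval from 70.0 to 15540, as Raji DMSO had 1 read in all. Of all genes tested, 73.6% were called different between the DMSO groups. With chidamide Raji-4RH reached 1.87 ± 0.162 FPKM, 1.71 times the read rate of DMSO (1.499 to 1.951), and Raji stayed at 0.00815 ± 0.0115 FPKM. The log2 fold change of 0.45 in Raji-4RH turned to -0.10 after quantile normalization. With 0 to 3 reads in each Raji library the change in Raji was about 0 on this scale, so a difference of the effects between the lines could not be measured. BRDT (chromosome 1 from 91949371 to 92014426), the testis member of the BET bromodomain family, had 7 reads in 1 library, Raji-4RH chidamide replicate 2, and 0 reads in the other 7.

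**Figure D2:**
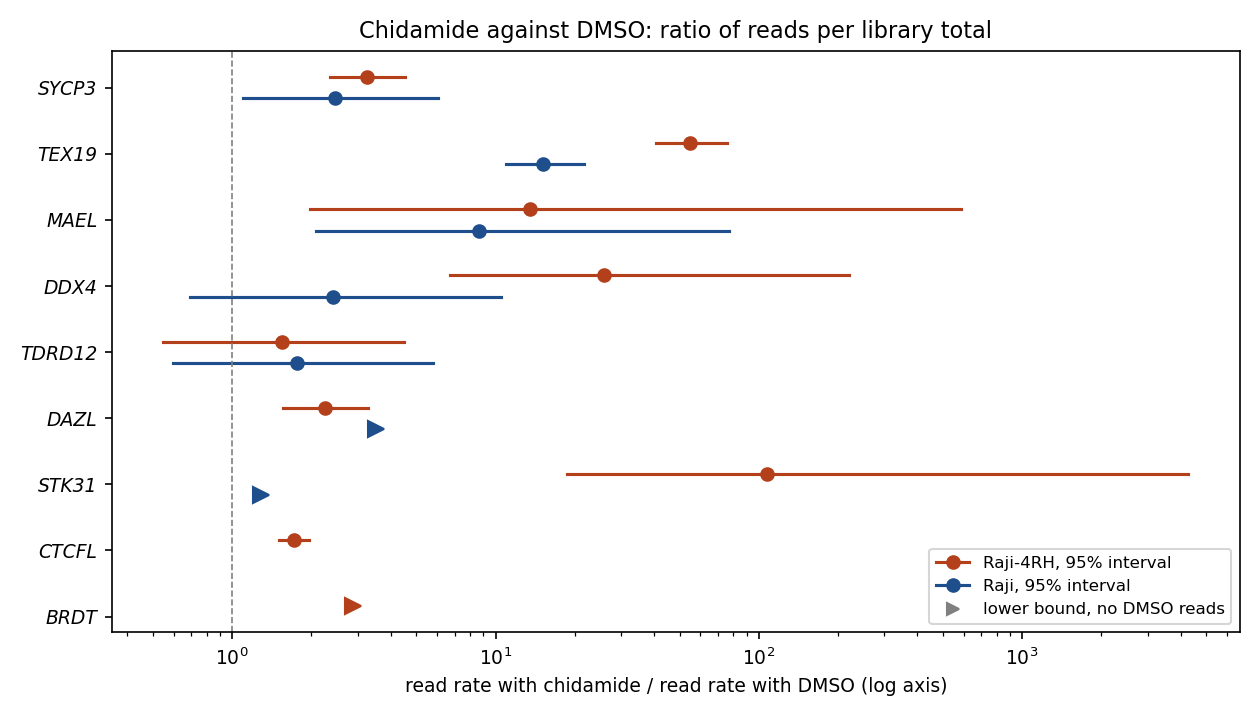
Ratio of read rates, chidamide over DMSO (x axis, log scale), for each gene (y axis) in Raji-4RH and Raji, with exact 95% intervals as lines and triangles where the DMSO libraries had no reads and only a lower bound exists. TEX19 has the narrowest of the high ratios, at 54.9 and 15.2, and the intervals of TDRD12 include 1 in both lines. SYCP1, and CTCFL and BRDT in Raji, have too few reads for a ratio.

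The read-based view can be set against all genes. In Raji-4RH, 7 of the 10 genes were higher with chidamide with no overlap between the 2 groups, and none was lower, while 53.3% of the 16843 genes with at least 1 read were higher in that way. In Raji 5 of the 10 were, against 38.4% of all genes. SYCP1 had no reads and is not among the 16843, so the like counts are out of 9, and the medians below include it. Most of the 10 are low in DMSO, and low genes rose widely: of the 6912 genes with reads that stayed under 1 FPKM in the 4 DMSO libraries, 64.6% were higher without overlap in Raji-4RH and 35.8% in Raji. The corresponding counts were 6 and 5 of the 8 such germline genes. Their median log2 fold change, over all 10, was 0.39 in Raji-4RH beside 0.071 for the 16843 genes, and 0.037 beside 0.0082 in Raji. Between the DMSO groups, 3 of the 10, SYCP3, DAZL and CTCFL, were higher in Raji-4RH with no overlap, against 40.3% of all genes.

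Only 2 of the 10 genes, TEX19 and CTCFL, had at least 1 FPKM in at least 2 libraries and entered the limma fit, and both owed this to Raji-4RH or to chidamide, so their calls are given as a description. Both were called higher with chidamide in Raji-4RH, where 74.9% of the 10710 genes tested were called and 43.3% were called higher. TEX19 was called higher in Raji, where 60.0% were called and 31.5% higher. The share of higher calls depends on the scaling: in Raji-4RH 4642 genes were called higher and 3380 lower, and after quantile normalization 3718 higher and 4057 lower, with the median of all genes tested moving from 0.093 to -0.022 on the log2 scale. An exact permutation test of 2 against 2 libraries cannot give a two-sided p under 0.333, and limma goes lower here because it borrows the spread of other genes and groups.

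The level across the 8 libraries placed the genes beside different partners, given as a description with no test, since libraries of a group share their treatment. By Pearson's r of log2(FPKM + 0.1), TEX19 was most like PRPF40B, ITGAD and PMEL (r from 0.997 to 0.998), and STK31 most like MEIS3, R3HDM2 and DUSP26 (0.995 to 0.997). CTCFL was most like KIAA1549, PTPRB and SLC26A1 (about 0.999), which were also near 0 in Raji, and DAZL like NAPEPLD, PXYLP1 and SCRN1. SYCP3 was most like NCBP2, SLU7 and RPL15, and DDX4 like SGCB, LGALS8 and TMEM120B. Among the germline genes themselves, SYCP3 and DAZL had r = 0.969, DAZL and CTCFL 0.955 and DDX4 and STK31 0.934, while TEX19 and CTCFL had 0.33.

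The same question was put to 5 lists of other germline genes, written from textbook knowledge with earlier results of these data known. They hold 116 genes that could be placed, 22 of them without a read in any library, and 25 entered the fit. With chidamide 12 of these rose, 6 fell and 7 were not called in Raji-4RH, and 12 rose, 5 fell and 8 were not called in Raji. Some genes low in DMSO, among them TEX14, MEI1, PRAME and CATSPER2, reached 1 FPKM only with chidamide. Such genes could enter the fit only by rising, so these counts, those of the single lists and the median are a description. Of all genes tested, 43.3% rose and 31.6% fell in Raji-4RH, and 31.5% rose and 28.5% fell in Raji. The median log2 fold change of the 25 was 0.23 in Raji-4RH and 0.19 in Raji, beside 0.093 and 0.017 for all genes tested. Of the 94 with reads, 49 were higher without overlap in Raji-4RH, beside 53.3% of all genes with reads, and 28 in Raji, beside 38.4%. Many of these genes were low in DMSO. Of all genes with reads and under 1 FPKM in the 4 DMSO libraries, 64.6% were higher in that way in Raji-4RH and 35.8% in Raji.

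In the list of meiotic chromosome and recombination genes, 5 of 10 rose and 2 fell in each line. In Raji-4RH TEX14, a protein of the bridges between germ cells, rose from 0.190 and 0.159 FPKM to 2.19 and 2.00 FPKM (log2 fold change 1.40). STAG3, the meiotic cohesin subunit, rose by 0.68, and MEI1 and MSH4, which act in meiotic recombination, by 0.74 and 0.34. MSH4 turned to a fall after quantile normalization, by -0.29, and MEI1 was then not called. MND1 and PSMC3IP, which form 1 complex that aids strand exchange, fell by 1.79 and 1.13. MND1 was at 21.3 and 19.8 FPKM in Raji-4RH DMSO and 5.68 and 4.81 FPKM with chidamide, and in Raji its log2 fold change was 0.13 and not called (adjusted p = 0.365). The 2 genes that fell in Raji-4RH were thus among the higher expressed of the list there. In Raji the 2 that fell were PSMC3IP, by 0.67, and DMC1, by 0.57. REC8, at 20.8 FPKM in both Raji DMSO libraries, rose there by 0.39.

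Only 3 of the 19 placed genes of the piRNA and nuage list entered the fit. TDRD7 rose in both lines, by 0.57 in Raji-4RH and 0.56 in Raji, and PLD6, the mitochondrial nuclease zucchini, fell by 0.96 and 1.30. TDRKH rose by 0.61 in Raji and was near 0 in all Raji-4RH libraries. Of the germ cell RNA-binding and pluripotency genes 2 of 14 entered, and NANOS1 rose by 0.32 in Raji-4RH, which turned to -0.085 and was not called after quantile normalization.

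Of 27 placed cancer-testis and testis chromatin genes 11 had no reads and 4 entered the fit. PRAME, a cancer-testis antigen, was at 0 in the 4 DMSO libraries, at 0.630 and 0.674 FPKM in Raji chidamide and at 1.34 and 2.04 FPKM in Raji-4RH chidamide. PRM1, a protamine that packs sperm DNA, went from 1.13 and 0.890 to 5.73 and 6.53 FPKM in Raji-4RH (log2 fold change 1.83), and its change in Raji was not called (adjusted p = 0.272). PRM1 had at most 2 reads in a Raji library and entered the fit through Raji-4RH. SPA17 rose by 0.35 in Raji-4RH, which turned to -0.27 after quantile normalization. ACTL8, an actin-like testis gene, fell in Raji from 43.4 and 44.6 to 17.8 and 18.7 FPKM. In Raji-4RH it was also lower with chidamide, but with few reads, 16 and 19 in DMSO and 5 and 9 with chidamide. It was under 1 FPKM in all Raji-4RH libraries and entered the fit through Raji. Of the spermatid and sperm genes CATSPER2, part of the calcium channel of sperm, rose by 1.68 in Raji-4RH and 1.24 in Raji; it has a near-identical pseudogene and its reads are uncertain. TSSK3 rose by 0.40 in Raji-4RH, which turned to -0.19 after quantile normalization, and ODF2 and TSSK6 fell by 0.72 and 0.85.

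**Figure D3:**
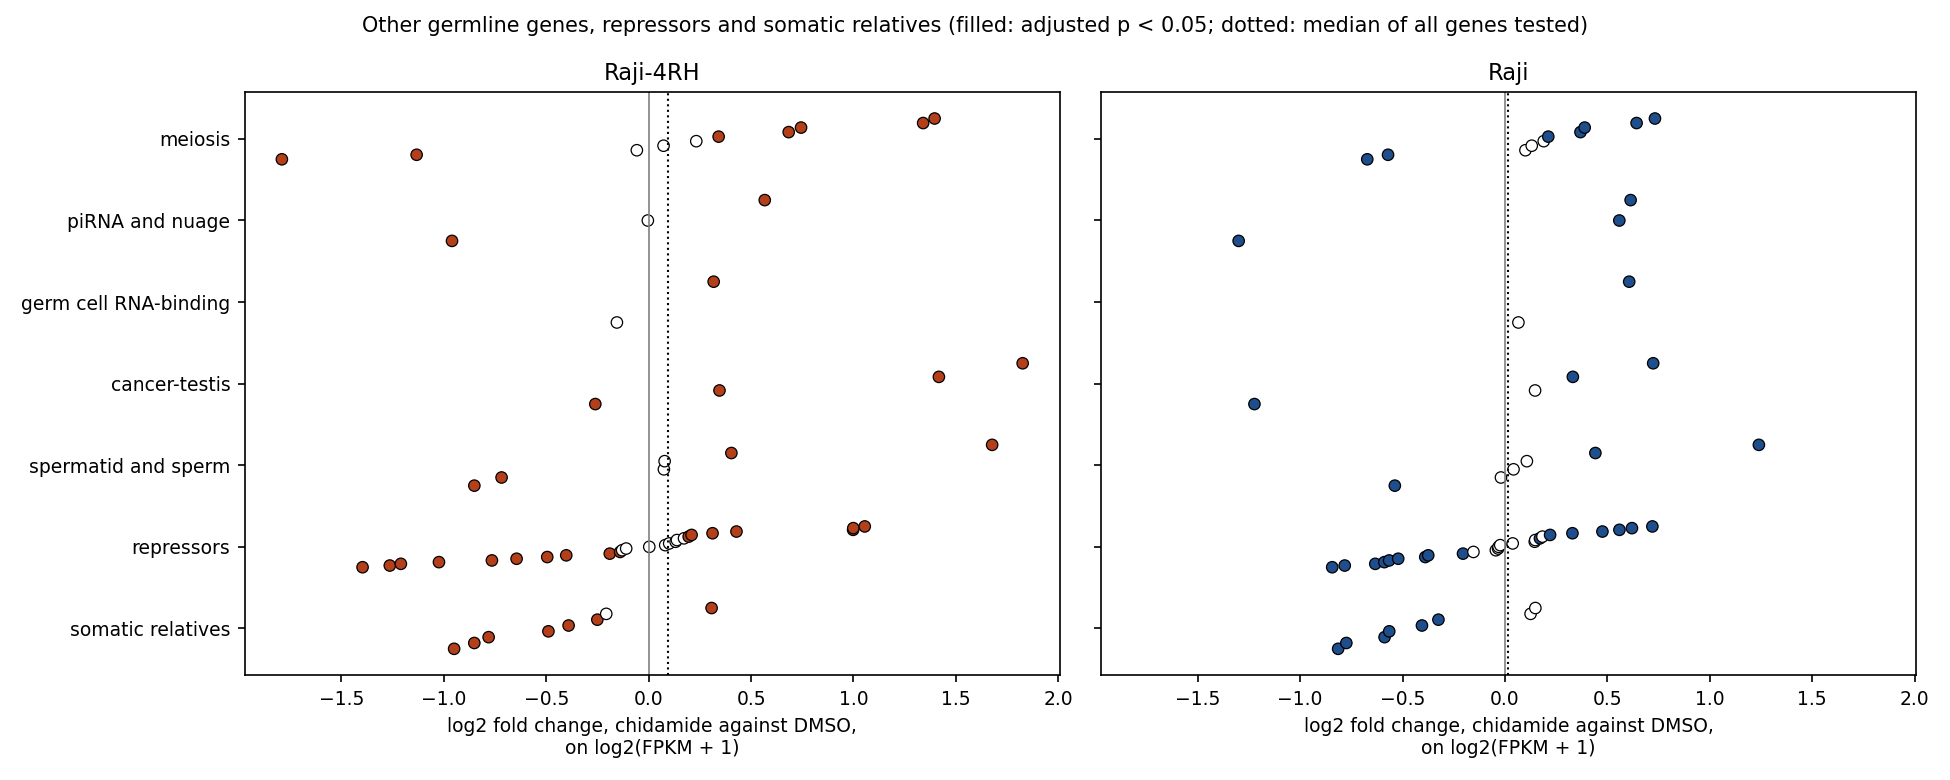
Log2 fold change on log2(FPKM + 1), chidamide against DMSO (x axis), of each gene tested in 7 lists (y axis) in Raji-4RH and Raji, filled where called and with a dotted line at the median of all genes tested. The germline lists hold rises and falls, from PRM1 at 1.83 to MND1 at -1.79 in Raji-4RH, and the somatic relatives lie mostly below 0.

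Genes that repress the germline program moved in both directions. Of 25 tested repressors, 7 rose, 10 fell and 8 were not called in Raji-4RH, and 7 rose and 9 fell in Raji, with the same shares of all genes as background. Within PRC1.6, PCGF6, L3MBTL2, WDR5 and TFDP1 fell in Raji-4RH by 1.40, 1.21, 1.26 and 1.02, and each also fell in Raji, by 0.57 to 0.84. PCGF6 was at 13.3 and 13.2 FPKM in Raji-4RH DMSO and 4.54 and 4.30 FPKM with chidamide. The difference of its chidamide effects, Raji-4RH minus Raji, was -0.83 (limma interaction, adjusted p = 8.6e-05). RYBP and RNF2, subunits of the same complex, rose in Raji-4RH by 1.00 and 0.43. MGA rose by 0.31 and was not called after quantile normalization, and the change of E2F6 was 0.13 on the log2 scale (adjusted p = 0.0575). DNMT1, the maintenance DNA methyltransferase, fell by 0.77 in Raji-4RH and by 0.20 in Raji, and DNMT3A, a de novo enzyme, rose by 1.06 and 0.56. DNMT3A was under 1 FPKM in all Raji libraries and entered the fit through Raji-4RH. ATF7IP rose by 1.00 in Raji-4RH, TRIM28 fell by 0.64, and HDAC2 rose by 0.21, which was not called after either of the other scalings.

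Of 8 tested somatic relatives of the 10 genes, 6 fell in each line, beside 31.6% of all genes tested in Raji-4RH and 28.5% in Raji. BRD3 rose in Raji-4RH by 0.31 but turned to -0.081 after quantile normalization. CTCF, the relative of CTCFL, fell by 0.85 in Raji-4RH, and in Raji it fell by 0.77, from 30.9 and 33.5 to 17.8 and 19.0 FPKM. The cohesin genes SMC1A, STAG2, RAD21 and STAG1 fell by 0.95, 0.78, 0.49 and 0.39 in Raji-4RH, and TDRD3 fell by 0.25.

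Markers of other cell types were also higher with chidamide. Of the 17 that could be placed, 14 were higher without overlap in Raji-4RH, beside 53.3% of all genes with reads, and 10 in Raji, beside 38.4%. Many of these markers were low in DMSO, and for all genes under 1 FPKM in the 4 DMSO libraries the shares were 64.6% and 35.8%. Of the 7 tested 6 rose in Raji-4RH and 5 in Raji, where 43.3% and 31.5% of all genes tested rose. CSF1R, COL1A1, LYZ and CD3E reached 1 FPKM only with chidamide and entered the fit through those libraries, so these counts are a description. CSF1R, a macrophage receptor, went from 0.124 and 0.0916 to 2.94 and 3.08 FPKM in Raji-4RH and from 0.0786 and 0.0578 to 4.63 and 5.06 FPKM in Raji, while COL1A1 rose by 0.50 in Raji-4RH, which turned to -0.0064 after quantile normalization. Summed, these markers were between 11.8 and 14.1 FPKM in Raji DMSO, 19.1 and 21.1 in Raji chidamide, 25.1 and 28.7 in Raji-4RH DMSO, and 32.2 and 38.9 in Raji-4RH chidamide. Of the 17 markers, 4 were at 0 in each Raji DMSO library and 5 in each Raji-4RH DMSO library. AMH, a marker of the somatic cells of the testis, fell in Raji-4RH from 17.4 and 19.8 to 5.72 and 11.4 FPKM. Without AMH the sum was 2.81 and 3.17 FPKM in Raji DMSO, 11.6 and 13.4 in Raji chidamide, 7.65 and 8.91 in Raji-4RH DMSO, and 26.5 and 27.4 in Raji-4RH chidamide. The part of other cells in the germline reads was not tested. In bulk RNA, fewer cells with a transcript and less of it per cell cannot be told apart.

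Genes within 100000 bases of the 10 that entered the fit were looked at after the values were known, so they are a description. Beside TEX19, CD7 went from 6.90 and 8.42 to 17.0 and 25.2 FPKM in Raji-4RH and was near 0 in Raji, a different pattern from that of TEX19, which rose in both lines. SLC16A3 on the same stretch was at 13.5 and 14.5 FPKM in Raji-4RH DMSO and between 0.224 and 0.298 FPKM in the Raji libraries. HEXDC, also beside TEX19, rose in both lines as TEX19 did, by 0.85 in Raji-4RH and 0.40 in Raji. CSNK1D there changed by 0.17 in Raji-4RH and -0.29 in Raji. Beside CTCFL, HMGB1P1 rose by 1.78 in Raji-4RH and 1.30 in Raji, and RBM38 was not called in either line. Beside SYCP3, MYBPC1 rose by 2.62 in Raji-4RH and 0.52 in Raji. MYBPC1 reached 1 FPKM only in the Raji-4RH chidamide libraries, at 5.27 and 5.53 FPKM, and could enter the fit only by rising there. Beside MAEL, ILDR2 rose by 1.30 in Raji-4RH and 0.72 in Raji. TADA1, also beside MAEL, fell by 0.87 in Raji-4RH and 0.39 in Raji.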

How the data were processed

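RNA-seq of 8 libraries was analyzed, 2 in each of 4 groups. Per the labels, the library kit was NEBNext Ultra. The submitters' processing notes name HISAT2 2.0.5, SAMtools 1.7, HTSeq 0.9.1 and DESeq2 1.22.2 with GRCh38; the annotation release and the strand setting are not given in the sources used here. FPKM, per gene and library and beside a gene length, was the unit of the 1 table the authors deposited. Reads were recovered as FPKM times length times library total, which gave whole reads within 0.01 for 100% of the values above 0. The table has 63967 labels for 63305 rows of values, with 662 rows repeated at its end. Values were given to 18143 labels by the distance between label and values in each segment of rows (0 to 14 rows), which covered 90.75% to 93.22% of the reads, and FPKM was recomputed with the gene's own length. Labels past row 18171 were not used here. Placement was checked on housekeeping and olfactory receptor genes, of which 278 of 279 olfactory receptors had under 20 reads.

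Differences were tested with limma 3.58.1 (R 4.3.3; lmFit, eBayes with trend) on log2(FPKM + 1), which understates the change of low genes, with the 8 libraries fitted together. A gene entered when 2 or more libraries reached 1 FPKM (10710 genes). The Benjamini-Hochberg adjusted p threshold was 0.05, two-sided. The script was tested on simulated data. Ratios of read rates have exact conditional 95% intervals, with 3 reads over a group as the floor for 0. Coordinates are from GENCODE v29. Python 3.11.15 with pandas 2.3.3, scipy 1.17.1 and matplotlib 3.10.9 was used.

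The members and lists were chosen with earlier results of these data known. Named are the 10 genes and, of each list, the genes called in Raji-4RH with a mean of at least 0.5 FPKM, at most 6 in each direction by size. E2F6, TDRKH, DMC1, REC8 and the genes near the 10 were named after their values were seen, as were all markers. For likeness, genes with at least 50 reads and their 3 closest genes were named. Alternatives were other pseudocounts, filters, scalings, variance models, row placements, limma voom on the reads, a replicate block and leaving out each library. Library pairs of a group differed beyond counting error, so none was counted as 1 sample.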

Additional observations from a re-analysis of the deposited data

Results flagged for a closer look

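TEX19 and CTCFL, the 2 genes in the fit, passed the threshold for the interaction term of limma, the difference of the chidamide effects between the lines. Both were chosen on these libraries and entered the fit through the groups where they are high, so their values are a description and carry no test. For TEX19 the log2 fold change was 1.84 higher in Raji-4RH than in Raji, and leaving out each library kept the difference between 1.69 and 2.00. All 4 chidamide libraries were above all 4 DMSO libraries. For CTCFL the difference was 0.44, and it turned to -0.078 after quantile normalization and was not called with voom on the reads. The Raji libraries held 0 to 3 reads of CTCFL, so a relative change there could not be measured.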

How the results depend on the processing

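The other germline lists gave 18 calls in Raji-4RH, from 25 genes tested. With 2 members tested, those called were 2 in Raji-4RH, 1 in Raji, 2 for the difference of the chidamide effects and 1 at baseline. Of all 10710 genes tested, 8022, 6421, 5231 and 7882 were called in the same order. With a mean of at least 1 FPKM these became 1 in Raji-4RH, 1 for the difference and 0 at baseline, since CTCFL then left the fit. With no filter 9 members entered, and the calls became 6 in Raji-4RH, 6 for the difference, 3 at baseline and 44 for the lists. Of all 16843 genes, 10430 were then called in Raji-4RH, 6377 for the difference and 8480 at baseline. With no filter and a pseudocount of 0.1 the calls were 7, 4 in Raji, 3 for the difference, 3 at baseline and 49. With no filter and voom on the reads they were 7, 4, 3, 3 and 55. Both settings were chosen after seeing the data. Over all 16843 genes these 2 settings called 10539 and 10973 in Raji-4RH and 7193 and 7836 in Raji. For the difference they called 6144 and 5593, and at baseline 8941 and 9468. DAZL went from 0.29 for the difference with no filter to -2.23 with no filter and voom, past the threshold in both fits. Quantile normalization gave 1 in Raji-4RH and 1 for the difference, and there CTCFL turned to -0.10 in Raji-4RH and -0.078 for the difference; the cause was not tested. With voom and the filter 1 member was called for the difference, and a fold change of at least 1 as well left 1 in Raji-4RH, 1 for the difference and 7 for the lists. Values 1 row above the rule gave 4, 2 in Raji, 5 at baseline and 49 for the lists, values 1 row below gave 1 for the difference, 2 at baseline and 49, and the row of the label gave 6, 3, 4, 5 and 31, as these rows hold other genes. In these 3 placements 8092 of 10744, 8091 of 10739 and 8063 of 10726 genes were called in Raji-4RH.

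Leaving out each library gave 2 to 2 members called in Raji-4RH, 1 to 1 in Raji, 2 to 2 for the difference, 1 to 1 at baseline and 16 to 20 for the lists. The replicate numbers are shared only as numbers. Deviations of same-numbered libraries had r = 0.166 in Raji-4RH and -0.091 in Raji, and -0.155 between the DMSO groups. With the replicate number as a block, 2, 1, 2 and 1 members and 18 list genes were called, and 7886 genes in all in place of 8022 in Raji-4RH. With the numbers crossed, chosen after seeing the data, 7969 genes were called at baseline in place of 7882, and 1 member. Most members had under 100 reads in a library, which limits what could be detected.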
